A study of Mus musculus with 2 samples.

Results

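Macrophages that carry transcripts of the major histocompatibility complex (MHC) class II were examined in mouse heart valves. A barcode, which stands for 1 captured cell, was counted as a macrophage when it held at least 3 unique molecular identifiers (UMIs, each a counted transcript) of C1qa, C1qb, C1qc and Csf1r and under 1% of its UMIs from Col1a1, Col1a2, Col3a1 and Dcn. A macrophage was class II positive with at least 3 UMIs of H2-Aa, H2-Ab1 and H2-Eb1, and class II low with at most 1. These gates found 128 class II positive macrophages among 273 macrophages and 4473 barcodes in all, 6 at postnatal day 7 (P7) and 122 at postnatal day 30 (P30). The class II low macrophages used for comparison numbered 41 and 92, and 12 macrophages at P30 with 2 class II UMIs entered neither group. The members were thus chosen by the measured counts of these 11 genes, and their levels are given as a description only.

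The cells came from aortic and mitral valves of C57BL/6J mice with no stated genetic change or treatment, and were captured by Drop-seq, which tags the 3' ends of transcripts on barcoded beads in droplets. Each age had 1 library. The sources used here do not say how many animals were pooled. With 1 library per age no test was possible, and all intervals are 95% intervals that cover counting error only.

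MHC class II molecules sit on macrophages, dendritic cells and B cells and show peptides from engulfed material to helper T cells. H2-Aa and H2-Ab1 encode the chains of one class II molecule and H2-Eb1 the beta chain of another, Cd74 encodes the invariant chain that guards the groove until peptide is loaded, and the H2-DM genes encode the loading factor. In the mouse heart, macrophages that express Lyve1, Folr2 and Timd4 are known as long-lived resident cells, and class II bearing macrophages are known to include cells renewed from blood monocytes that express the chemokine receptor Ccr2.

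The class II genes share control elements close to their start sites, the X box and the Y box, to which the RFX complex and NF-Y bind and where the coactivator encoded by Ciita is recruited. The sequences of 3 promoters are shown because these genes define the group (H2-Aa, H2-Eb1) or accompany it outside the rule (H2-DMb1). Each is the 250 bases before the transcript start, from RefSeq on build GRCm38.p6, printed 5' to 3' on the gene's own strand. They cover chr17:34287824-34288073 on the minus strand for H2-Aa, chr17:34305617-34305866 on the plus strand for H2-Eb1 and chr17:34152941-34153190 on the plus strand for H2-DMb1. Capitals mark the Y box core TGATTGG in all 3, an X box in H2-Eb1 (TAGCAACTGATG) and H2-DMb1 (TAGTAACTGATG), and the cyclic AMP response element TGACGTCA in H2-Aa.
H2-Aa: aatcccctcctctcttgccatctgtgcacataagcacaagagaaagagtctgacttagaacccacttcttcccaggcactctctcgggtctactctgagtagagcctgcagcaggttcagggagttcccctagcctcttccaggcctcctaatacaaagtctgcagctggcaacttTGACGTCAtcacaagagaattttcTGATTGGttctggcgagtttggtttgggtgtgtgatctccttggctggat
H2-Eb1: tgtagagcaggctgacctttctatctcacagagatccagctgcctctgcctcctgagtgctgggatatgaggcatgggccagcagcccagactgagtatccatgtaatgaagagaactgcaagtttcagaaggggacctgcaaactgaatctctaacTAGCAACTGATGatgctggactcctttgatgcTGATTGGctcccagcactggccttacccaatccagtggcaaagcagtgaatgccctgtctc
H2-DMb1: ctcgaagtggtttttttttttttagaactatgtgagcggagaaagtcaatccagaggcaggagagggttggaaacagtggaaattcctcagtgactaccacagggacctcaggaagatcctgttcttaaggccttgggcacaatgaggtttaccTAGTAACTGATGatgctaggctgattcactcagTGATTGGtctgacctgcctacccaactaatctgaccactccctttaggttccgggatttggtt

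The motifs were spelled out after these sequences had been read, and both strands were searched, with the third, the fourth and the eighth letters of the X box free to vary. Those are the letters at which the matches in H2-Eb1, H2-DMb1 and H2-DMb2 differ, so the rarity of the X box below is partly set by this choice. H2-Aa had no match to this spelling, which does not show that it lacks an X box. The X box and the Y box core stood 20 bases apart in H2-Eb1 and 21 bases apart in H2-DMb1 and in its near-identical neighbour H2-DMb2. Of 32851 RefSeq promoters of this length, 7.23% held the Y box core, 0.125% the X box, 1.55% the cyclic AMP response element, and 0.0152% (5 promoters, of Dusp8, Gm35184, H2-DMb1, H2-DMb2 and H2-Eb1) both boxes. Neither of 2 H2-DMa promoters held any of these letters. A match describes the letters in the window and was not tied to binding here. In all, 5 of 6 genes looked up had a promoter in the table. In the RefSeq models the genes lie side by side on chromosome 17, with H2-Ab1 from 34263227 to 34269418, H2-Aa from 34282744 to 34287823 and H2-Eb1 from 34305867 to 34316674.

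The P7 library held 961 barcodes and the P30 library 3512, with medians of 2215 and 2440.5 UMIs per barcode. No barcode sequence occurred in both libraries. The libraries carry different run names, so age and run cannot be told apart. Between class II positive and class II low barcodes the median depth was 3195.5 against 2165 UMIs at P7 and 2139 against 2335.5 at P30. Summed counts were 19649 UMIs in the 6 positive and 99485 in the 41 low barcodes at P7, and 309955 and 245203 at P30. No macrophage barcode in either group held more than 10000 UMIs, and doublets were not removed.

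Class II positive cells made up a larger share of macrophages in the P30 library. They were 12.8% (4.83 to 25.7, exact binomial interval) of 47 macrophages at P7 and 54.0% (47.2 to 60.6) of 226 at P30. Macrophages as a whole were 4.89% (3.62 to 6.45) and 6.44% (5.65 to 7.30) of all barcodes. Dissociation and droplet capture can set such shares, and their part was not tested. At P30 the class II genes summed to between 3 and 181 UMIs per positive barcode, with a median of 37.5, or from 0.0909% to 5.69% of the barcode's UMIs with a median of 1.73%. At P7 the 6 positive barcodes held 3, 3, 6, 13, 15 and 17 class II UMIs. The P30 members thus ranged from barcodes at the gate to barcodes with class II as a main product, and the P7 members lay at the lower end of that range.

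**Figure D1:**
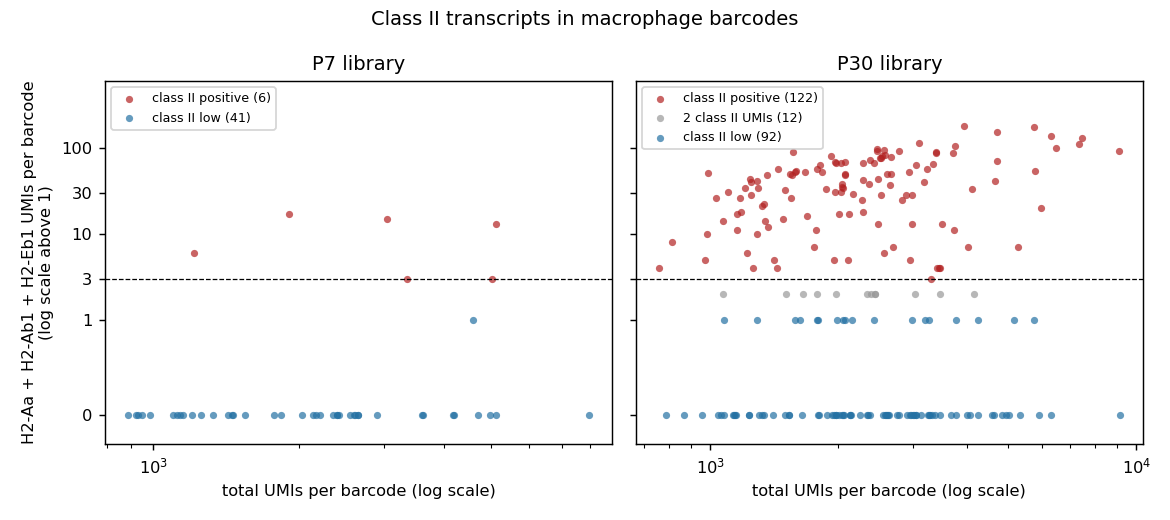
Each point is 1 macrophage barcode, with its total UMIs on the x axis (log scale) and its summed H2-Aa, H2-Ab1 and H2-Eb1 UMIs on the y axis (log scale above 1), for the P7 library on the left and the P30 library on the right. The dashed line marks the gate at 3 UMIs. The 6 positive P7 barcodes reach 17 class II UMIs and the 122 positive P30 barcodes reach 181.

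H2-Aa stood at 5004 CPM (4758 to 5259) in P30 positive barcodes, as CPM, the UMIs of the gene per 1000000 UMIs of the group, and at 1018 (622 to 1572) in P7 positive barcodes. H2-Ab1 stood at 6733 CPM (6447 to 7028) and 1119.7 (702 to 1695), and H2-Eb1 at 6159 CPM (5886 to 6442) and 763 (427 to 1259). In P30 the single genes were detected in 120, 120 and 114 of 122 positive barcodes. Just outside the gate at P30, the 12 barcodes with 2 class II UMIs had Cd74 at 1274 CPM and the 18 with 1 UMI at 789 CPM. Just inside, the barcode with 3 class II UMIs had no Cd74 UMI and the 6 with 4 had Cd74 at 1380 CPM. Cd74 stood at 183 CPM in the 74 barcodes with no class II UMI and at 2983 CPM in the 5 with 5 class II UMIs, so the barcodes nearest to the gate on either side lay between these levels, apart from the one with no Cd74 UMI. Another 67 barcodes at P30 and 7 at P7 had at least 3 class II UMIs and under 1% collagen-gate transcripts but no UMI of the 4 macrophage genes, and they are not members.

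Free transcripts in the droplets can reach any cell, and collagen-rich barcodes outside the macrophage gate are given beside shares of barcodes with a UMI for that reason. They had a class II UMI in 17.9% of cases at P30 (7.41% when each barcode was thinned to 600 UMIs) and 7.93% at P7 (2.61% thinned). Class II low macrophages at P30 had one in 19.6% (5.38% thinned), where the gate allows at most 1 UMI. Single collagen-rich barcodes held up to 112 class II UMIs at P30 and 9 at P7, so their class II share was not read as a background. The median depth of the collagen-rich barcodes was 2541 UMIs at P30 and 2237 at P7, and no barcode was too shallow for thinning.

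Myeloid markers outside the rule set both macrophage groups apart from collagen-rich barcodes. That comparison cannot tell macrophages from other myeloid cells. At P30, Tyrobp, an adaptor of myeloid receptors, stood at 1255 CPM (1133 to 1386) in positive and 1309 (1169.8 to 1460.5) in low barcodes, and at 2.51 in collagen-rich barcodes. Aif1, a macrophage cytoskeletal protein, stood at 836 CPM in both macrophage groups and at 1.44 in collagen-rich barcodes. The fractalkine receptor gene Cx3cr1 was detected in 82.0% (47.1% thinned) of positive, 76.1% (39.3%) of low and 0.778% (0.295%) of collagen-rich barcodes. The rule genes C1qa and Csf1r stood at 2087 CPM (1929.6 to 2255) and 516 (439 to 603) in positive and at 2479.6 (2286 to 2685) and 579 (488 to 683) in low barcodes. Mertk, an engulfment receptor often used to define macrophages, was an exception and stood at 35.5 CPM (17.7 to 63.5) in positive against 167 (119.99 to 227) in low barcodes. After thinning, 1.97% of positive and 2.29% of collagen-rich barcodes had a Mertk UMI. The collagen-rich barcodes held Mertk at 40.0 CPM, far more of the macrophage level than for Tyrobp or Aif1, so they were not read as its background.

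Dendritic cells also carry class II, and their markers were read as a list. At P30, 19 of 25 dendritic cell genes had a UMI in positive barcodes, against 12 in low barcodes. Their summed level was 1084 CPM in positive, 795 in low and 96.1 in collagen-rich barcodes. The defining genes Flt3, Zbtb46 and Cd209a were at 0 in all 122 positive barcodes, as were Cacnb3, Htr7 and Klrd1. All of these but Zbtb46 were at 0 in low barcodes too. Itgae, Xcr1, Clec9a, Ccr7, Fscn1, Ccl22, Dpp4 and Gpr171 had a UMI in positive barcodes and none in low barcodes. Xcr1 and Clec9a, genes of cross-presenting dendritic cells, had 2 UMIs each, in 1 barcode each. A shorter set was used to leave out barcodes, namely Flt3, Zbtb46, Cd209a, Xcr1, Clec9a, Ccr7, Fscn1, Ccl22, Cacnb3, Itgae, Wdfy4 and Naaa. A UMI of this set was found in 26 of 122 positive barcodes, while 68 held 2 or more UMIs of the full list. Without barcodes holding 2 or more UMIs of the shorter set, Cd74 stood 4.73 higher (log2) in positive than in low barcodes. Il1b stood 2.01 higher and Lyve1 at −3.66. Most positive barcodes with 2 or more UMIs of the full list thus stayed in. T cell markers had 2 of 10 genes detected (51.6 CPM against 48.9 in low), with Cd3d, Cd3e, Cd3g and Trac at 0. B cell markers had 5 of 10 (103 against 85.6), with Cd79a and Ms4a1 at 0. Mast cell markers were all at 0, and neutrophil markers summed to 16.1 CPM against 16.3.

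At P30 class II positive macrophages carried more of the class II loading machinery, Il1b, Mmp13 and Ccr2 than class II low macrophages, and less of a resident macrophage set led by Lyve1, F13a1, Folr2 and Cd163. A gene was measured with at least 20 CPM and 10 UMIs in the higher group, and called when the groups were at least 2-fold apart and the interval of the ratio excluded equal levels. Of 4463 measured genes, 121 (2.71%) were called higher and 220 (4.93%) lower in positive barcodes, and the median log2 ratio was −0.03. The intervals are not adjusted for the number of genes. With wider intervals (an error of 0.01% in place of 5%), 15 were higher and 40 lower, and with the gene's highest barcode in the higher group left out, 64 and 116. The genes named below hold in the latter count unless said otherwise.

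Among other genes of class II presentation, 3 of 8 measured were higher and none lower, with a list median log2 ratio of 0.36. Of all measured genes 2.71% were higher. Cd74 stood at 7982 CPM (7670.4 to 8303) in positive and 302 (237 to 379) in low barcodes, 4.73 (4.39 to 5.08) on the log2 scale. Its UMIs per positive barcode ran from 0 to 61 with a median of 16, it was detected in 121 of 122 positive and 34 of 92 low barcodes, and the groups overlapped only in the low range of the former. H2-DMa, the alpha chain of the loading factor, stood at 436 CPM (365 to 516) against 110.1 (72.6 to 160.2), a log2 ratio of 1.98 (1.38 to 2.64). Its partner H2-DMb1 stood at 313 CPM (254 to 382) against 65.3 (37.3 to 106), at 2.26 (1.49 to 3.12), and reads could not be split with certainty from the copy H2-DMb2 (8 and 4 UMIs). An H2-DMb1 UMI was found in 46.7% (16.8% thinned) of positive, 16.3% (4.23%) of low and 3.005% (0.641%) of collagen-rich barcodes. Ciita, the coactivator of the class II genes, had 6 UMIs in 4 positive barcodes and 0 in low barcodes, under the minimum for a call. Ctss, the protease that trims the invariant chain, stood at 3701 CPM (3489 to 3921) against 2586 (2388 to 2795) and was not called.

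Genes of MHC class I presentation, by which cells show their own proteins to cytotoxic T cells, had 2 of 20 measured members higher and none lower, with a list median of 0.31. Of all measured genes 2.71% were higher. The class I genes called were H2-T22 at 1.57 (0.41 to 2.90) and H2-Q7 at 1.02 (0.46 to 1.61). Both are members of gene families with near-identical copies, and the H2-Q7 call was lost without its highest barcode. B2m, the shared light chain, stood at 8959 CPM (8629 to 9299) against 8723 (8358 to 9101), and H2-D1 at 0.00 on the log2 scale. H2-M2, a class I like gene, had 21 UMIs in 5 positive barcodes, 13 of them in 1, and none in low barcodes, at least 2.47 higher against a floor of 3 UMIs.

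Resident macrophage genes were lower in positive barcodes as a group. Of 20 measured members 18 were called lower and none higher, against 4.93% of all measured genes, with a list median of −1.50 against −0.03 for all genes. The list was chosen with earlier results of these data known, so its share of calls is a description only. Without each gene's highest barcode 14 calls held. Lyve1, the hyaluronan receptor of resident tissue macrophages, stood at 22.6 CPM (9.08 to 46.5) in positive and 302 (237 to 379) in low barcodes, −3.74 (−5.10 to −2.63) on the log2 scale. It was detected in 1.64% (0.921% thinned) of positive, 26.1% (13.4%) of low and 0.389% (0.0993%) of collagen-rich barcodes, and 5 of the 7 positive UMIs were in 1 barcode. Folr2, a folate receptor, stood at 22.6 CPM (9.08 to 46.5) against 237 (179.6 to 306), at −3.39 (−4.77 to −2.25). It was detected in 4.10% (1.61% thinned) of positive, 38.0% (13.3%) of low and 0.0707% (0.00966%) of collagen-rich barcodes. Cd163, the receptor for haemoglobin bound to haptoglobin, stood at 61.3 CPM (36.9 to 95.7) against 392 (317 to 478), at −2.68 (−3.47 to −1.95). F13a1, a coagulation factor subunit, stood at 155 CPM (114 to 205) against 1060.3 (935 to 1197), at −2.78 (−3.25 to −2.33), and was found in 15 of 122 positive and 46 of 92 low barcodes. The carbonyl reductase gene Cbr2 stood at −2.46 (−3.03 to −1.93) and the ubiquitin ligase gene Wwp1 at −2.01 (−2.77 to −1.30).

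Other resident genes were lower but still widely detected in positive barcodes, and a few were at 0. The mannose receptor Mrc1 stood at 678 CPM (589 to 776) against 1489 (1339.8 to 1649), and the chemokine Pf4 at 1278 CPM (1155 to 1409.8) against 3422 (3194 to 3661). Mrc1 was still detected in 70 of 122 positive barcodes and Pf4 in 81. Fcna, a ficolin, and the endothelin receptor Ednrb had 0 UMIs in positive barcodes and 13 and 12 in low barcodes, which put them at least 2.45 and 2.34 lower against a floor of 3 UMIs in the positive group. Timd4, a receptor for dying cells, was detected in 2 positive and 6 low barcodes. The 2 measured members that were not called were Ccl24 at −1.34 (−3.24 to 0.34) and Trf at −0.32 (−0.82 to 0.18).

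Scavenger and engulfment receptors, which share the lower genes Cd163, Mrc1, Stab1 and Timd4 with the resident list, had 8 of 14 measured members lower and none higher (list median −1.32), and the Timd4 call was lost without its highest barcode. Beside those, Lrp1 stood at −1.58 (−2.37 to −0.83), the scavenger lectin Colec12 at −2.51 (−4.07 to −1.20) and Mertk at −2.24 (−3.35 to −1.25). The cholesterol exporter Abca1 stood at −1.73 (−2.53 to −0.98). The semaphorin and growth factor receptor Nrp2, outside the lists, stood at −2.56 (−4.12 to −1.26), and the polarity gene Llgl1 had 0 UMIs against 10, at least 2.08 lower, of which 3 UMIs were left, too few for a ratio, without barcodes of 3 or more cell cycle UMIs. Growth factor genes had 4 of 10 measured members lower and none higher (list median −0.78). Beside this list and the scavenger list, 4.93% of all measured genes were lower. Igf1, insulin-like growth factor, stood at 129 CPM (92.2 to 176) against 322 (255 to 402), and Gas6, the ligand of Mertk, at 161 CPM (119.7 to 213) against 371 (299 to 456). Bmp2 was at −3.24 (−6.42 to −1.14) with 2 and 15 UMIs, and the Areg call rested on 1 low barcode with 21 of 22 UMIs.

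Of the genes named singly as higher, Il1b and Mmp13 were found in the most positive barcodes outside the class II presentation genes. Il1b, the inflammatory cytokine interleukin-1 beta, stood at 2310.01 CPM (2144 to 2486) in positive and 567 (477 to 669) in low barcodes, 2.03 (1.76 to 2.30) on the log2 scale. It was detected in 72.1% (51.5% thinned) of positive, 26.1% (15.4%) of low and 0.530% (0.142%) of collagen-rich barcodes. Mmp13, a collagenase, stood at 890.5 CPM (788 to 1002) against 188 (137 to 250.2), at 2.25 (1.79 to 2.73). It was detected in 41.0% (25.8% thinned) of positive, 11.96% (4.64%) of low and 0.389% (0.0847%) of collagen-rich barcodes. With positives of at least 5 class II UMIs set against macrophages with none, Mmp13 stood at 3.35. A total of 39 positive barcodes carried both genes, 49 Il1b without Mmp13 and 11 Mmp13 without Il1b.

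Ccr2, the receptor by which monocytes leave the blood, stood at 306 CPM (248 to 375) in positive and 65.3 (37.3 to 106) in low barcodes, 2.23 (1.46 to 3.10) on the log2 scale. It was detected in 30 of 122 positive barcodes, and all 16 UMIs of the low group were in 1 of its 92 barcodes. The shares were 24.6% (11.3% thinned) of positive, 1.09% (0.892%) of low and 0.106% (0.0149%) of collagen-rich barcodes. With barcodes of 1000 to 5000 UMIs only, Ccr2 had 74 UMIs in positive and 0 in low barcodes and was at least 4.33 higher against a floor of 3 UMIs. Without barcodes of 3 or more cell cycle UMIs it had 53 and 0 and was at least 3.69 higher. Of the 30 positive barcodes with Ccr2, 26 also had Cx3cr1, 23 Il1b and 14 Mrc1, and 1 had Cd163 and 1 F13a1. Among positive barcodes without Ccr2, 74 had Cx3cr1 and 18 did not, and 65 had Il1b and 27 did not. For Mrc1 these counts were 56 and 36, for Cd163 9 and 83, and for F13a1 14 and 78. Most positive barcodes thus had a Cx3cr1 UMI and no UMI of the resident genes Cd163 and F13a1, with or without Ccr2. Cd163 and F13a1 were found in 10 and 15 of 122 positive barcodes, and in 21 and 46 of 92 low barcodes. Cx3cr1 was found in 70 low barcodes, so most of these also had Cx3cr1 and no Cd163 UMI. At this depth, no UMI does not show absence. Barcodes with Ccr2 were deeper, at a median of 2462.5 UMIs against 2072.5 without it. Other monocyte genes did not follow Ccr2: 2 of 9 measured members were higher and none lower, the second being Ms4a4c at 1.06 (0.14 to 2.07), a call lost without its highest barcode. Of all measured genes 2.71% were higher. The list median was −0.18, and Ly6c2 and Plac8, markers of inflammatory monocytes, were at 0 in positive barcodes.

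The remaining named genes higher in positive barcodes were detected in fewer cells. Cytip, which controls the adhesion of activated leukocytes, stood at 155 CPM (114 to 205) against 20.4 (6.62 to 47.6), and the lysosomal phospholipase-like gene Plbd1 at 148 CPM (109 to 198) against 20.4 (6.62 to 47.6). They were found in 30 and 34 positive barcodes and in 5 low barcodes each. Slamf7, a receptor of activated leukocytes, stood at 174 CPM (131 to 227) against 44.9 (22.4 to 80.3). Atad2b had 12 UMIs in 12 positive barcodes and 0 in low barcodes, at least 1.66 higher, a bound that lay under 2-fold, at 0.76, without barcodes of 3 or more cell cycle UMIs. Ccl17, a chemokine of dendritic cells and activated macrophages, had 33 UMIs in 2 positive barcodes and 0 in low barcodes, at least 3.12 higher, so that it describes 2 cells and not the group.

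**Figure D2:**
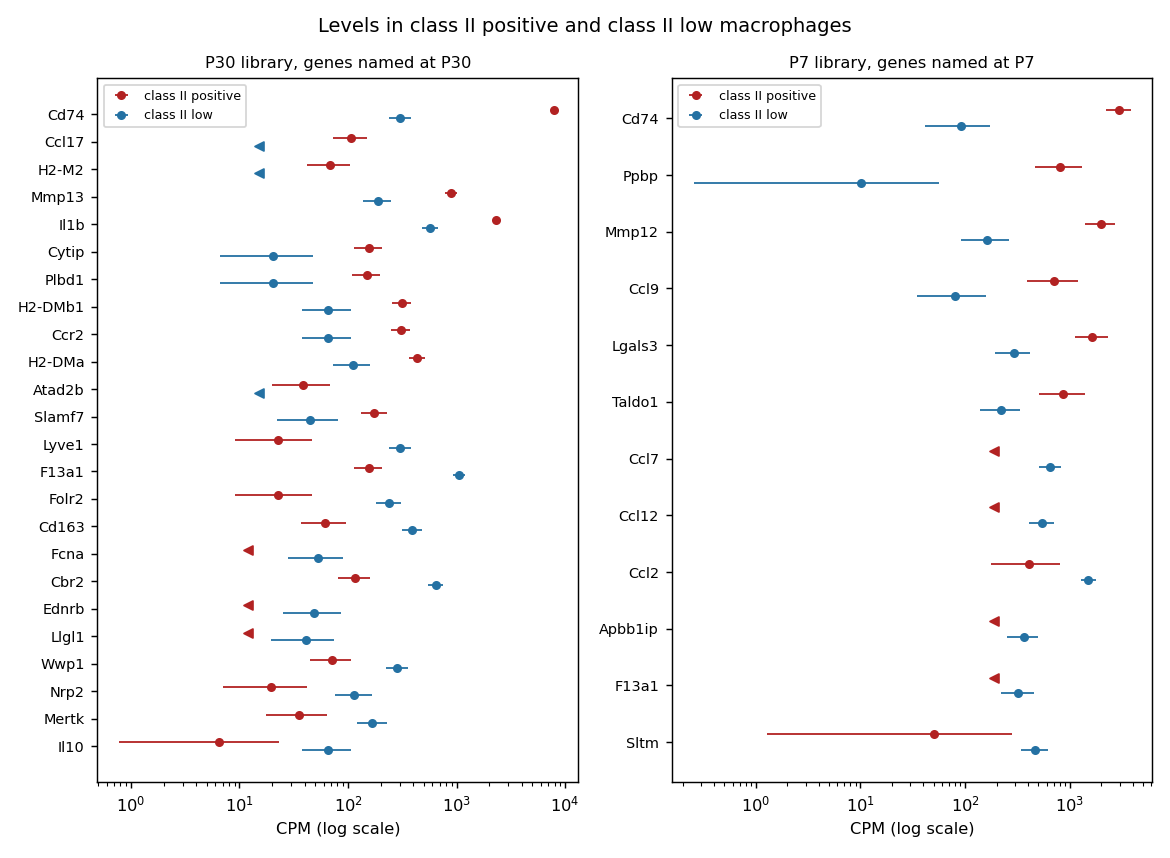
Levels in CPM (log scale) of the genes named singly, with class II positive macrophages in red and class II low macrophages in blue, for the P30 library on the left and the P7 library on the right. Points are summed counts of a group, bars are exact Poisson intervals at 95%, and triangles mark the upper limit of a group with 0 UMIs. At P30 Cd74, Il1b and Mmp13 lie to the right in positive cells and Lyve1, F13a1 and Folr2 to the left.

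Inflammatory mediators did not move as one group. Of all measured genes 2.71% were higher and 4.93% lower. Cytokines and their receptors had 2 of 22 measured members higher, Il1b and Il1a (1.25 (0.45 to 2.10)), and 2 lower, Il10 and Csf1 (list median 0.17). Il10, an anti-inflammatory cytokine, had 2 UMIs in positive and 16 in low barcodes, 8 of those in 1 barcode, a ratio of −3.34 (−6.50 to −1.25). Without barcodes that held 3 or more cell cycle UMIs it was at −0.46, with 2 UMIs left in each group. The Csf1 call was lost without its highest barcode. Tnf stood at 723 CPM (631 to 824) against 379 (306 to 465), at 0.93 on the log2 scale and under the 2-fold limit. Chemokines had 1 of 17 measured members higher, Ccl17, and 1 lower, Ccl7 at −1.17 (−1.42 to −0.92) (list median 0.16). Ccl2, a ligand of Ccr2, stood at 1765 CPM (1619.96 to 1919) against 3267 (3044 to 3501), and Cxcl2 at 8282 CPM (7965 to 8609) against 6827 (6504 to 7162), and neither was called.

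The counts in this paragraph stand beside 2.71% higher and 4.93% lower over all measured genes. Interferon response genes had 2 of 27 measured members higher and none lower (list median 0.22), Ifi44 at 1.36 (0.40 to 2.43) and Iigp1 at 1.17 (0.42 to 1.99), the latter lost without its highest barcode. Transcription factors had 2 of 25 higher, Runx3 at 1.66 (0.51 to 2.99) and Id3 at 1.21 (0.60 to 1.86), and 1 lower, Maf at −1.09 (−1.32 to −0.86) (list median 0.16). Maf and Id3 lost the call without the highest barcode, and an Id3 UMI was also found in 72.4% of collagen-rich barcodes. The myeloid factors Spi1 at −0.35 and Irf8 at 0.36 were not called. Dendritic cell genes had 3 of 7 measured members higher, Itgax (2.36 (0.22 to 5.55)), Naaa and Tnip3, and 1 lower, Siglech (list median 0.98), and Tnip3 alone held without its highest barcode. Fc and complement receptors had 2 of 12 higher, Fcgr4 at 1.25 (0.18 to 2.44) and Itgax, and 1 lower, Fcgrt at −1.50 (−2.32 to −0.73) (list median −0.09).

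Several groups differed little between positive and low macrophages, beside 2.71% higher and 4.93% lower over all measured genes. Lysosome genes had 1 of 21 measured members lower, the protease Ctsd at −1.73 (−2.32 to −1.17), and none higher (list median −0.36). Lipid-laden macrophage genes had none of 9 called (list median −0.43), and immediate early genes, which dissociation can induce, none of 19 (list median 0.31). Matrix and protease genes had 1 of 13 higher, Mmp13. Cell cycle genes had 2 of 23 lower, Ccnb2 and Cenpa, both lost without the highest barcode, and none higher (list median 0.07). At least 3 cell cycle UMIs were found in 43 of 122 positive, 36 of 92 low and 149 of 2829 collagen-rich barcodes. The 4 measured haemoglobin genes were lower in positive barcodes, but 1690 of 1908 haemoglobin UMIs of the low group were in 1 barcode, and no call held without it.

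Levels also differed along the class II share of a barcode's UMIs, over all P30 macrophages. Members had a share of at least 0.0909% and class II low barcodes of at most 0.0929%. The lowest bin below thus held no member, and a change from it is not a difference among members. From 0.3% up the bins held no class II low barcode. The P30 macrophages were placed in 5 bins of that share, under 0.05%, 0.05 to 0.3%, 0.3 to 1%, 1 to 3% and 3% or more, with 86, 31, 25, 52 and 32 barcodes. Cd74 stood at 252, 1880.1, 4363, 8616 and 13049.5 CPM from the lowest to the highest bin. H2-DMa stood at 118, 79.4, 349.7, 447 and 663 CPM. Both were thus highest in the barcodes richest in class II. Il1b stood at 583, 1139, 2231, 2401 and 2680.4 CPM, with most of the increase below a class II share of 1%. Mmp13 stood at 197, 384, 433, 1002 and 1256 CPM, Ccr2 at 67.2, 185, 233, 274 and 409 CPM and Tnf at 369, 636, 649, 656 and 1086 CPM, each highest in the last bin.

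The summed resident list ran the other way, at 13956, 10102, 8043, 3959 and 3626 CPM over the same bins. Pf4 stood at 3421, 2688, 1532, 1197 and 846 CPM and Mrc1 at 1486, 1059, 1182, 490.3 and 423 CPM, while Cd163 stood at 395, 252, 117, 36.1 and 0.00 CPM and Lyve1 at 302, 53.0, 0.00, 36.1 and 0.00 CPM. Barcodes with an intermediate class II share therefore kept much of the Mrc1 and Pf4 level and little Lyve1. The rule genes C1qa at 2476, 2264, 2298, 1911 and 2314 CPM and Csf1r at 588, 569, 616, 490.3 and 437 CPM varied far less. Itgax was at 8.39, 13.2, 0.00, 28.8 and 113 CPM, with 8 of its 15 UMIs in the highest bin. The summed dendritic cell list stood at 789, 715, 1099, 966 and 1608 CPM over the bins and was also highest in the last. Its part in the other values was not tested beyond the alternative without barcodes of 2 or more UMIs of the shorter marker set. The order over bins is a description, since counts of barcodes per bin are small and class II counts define the x axis.

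**Figure D3:**
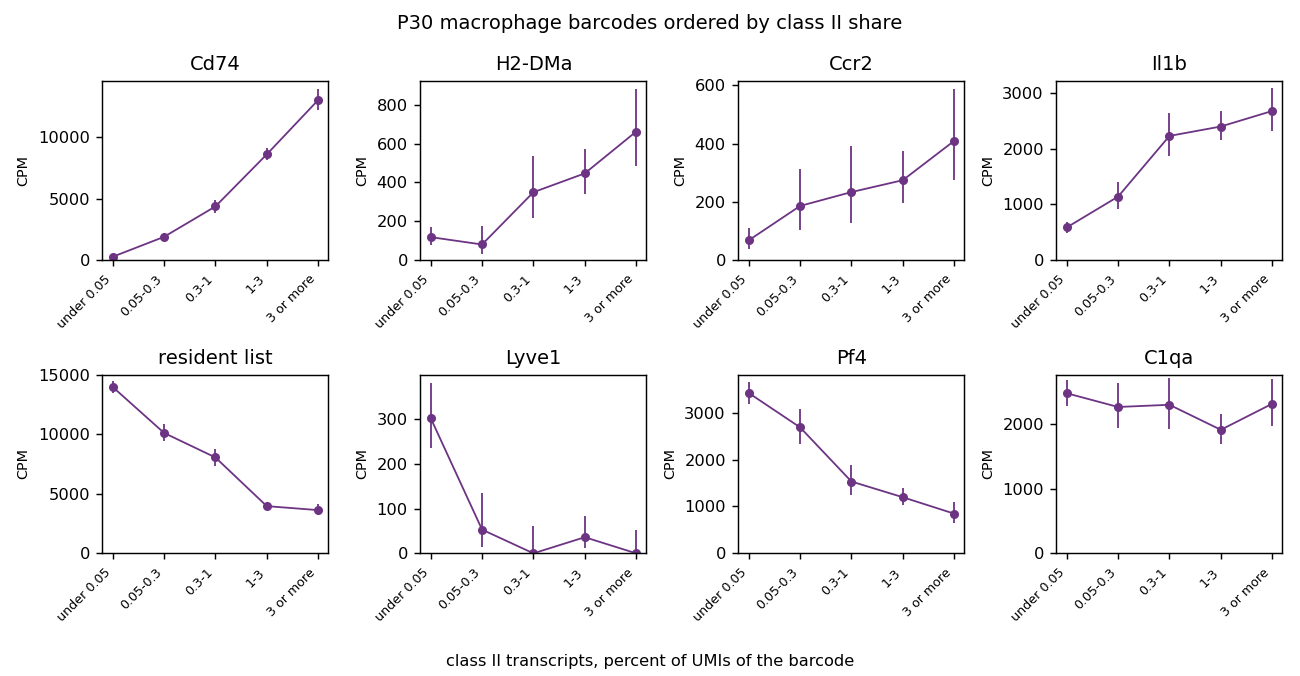
Levels in CPM of 7 genes and the summed resident list in P30 macrophages, placed in 5 bins by the class II share of their UMIs, with exact Poisson intervals at 95% as bars. Cd74, H2-DMa, Ccr2 and Il1b are highest in the last bin, the resident list, Lyve1 and Pf4 are highest in the first, and C1qa stays between 1911 and 2476 CPM.

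At P7 the 6 class II positive macrophages carried Cd74 at 2952 CPM (2241 to 3816) against 90.5 (41.4 to 172) in the 41 class II low macrophages, 5.03 (4.01 to 6.23) on the log2 scale. All 6 had a Cd74 UMI (9, 10, 2, 15, 16 and 6), against 8 of 41 low barcodes with at most 2 each. Of 1370 measured genes 24 (1.75%) were called higher and 24 (1.75%) lower. The log2 ratio over all of them had a median of −0.40. The comparison is lopsided, because 10 UMIs are 509 CPM in the positive and 101 CPM in the low group. Without the gene's highest barcode 7 and 18 calls held.

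The macrophages grouped at P7 were unlike each other. Ordered by class II UMIs, the 6 barcodes held 42, 13, 6, 49, 3 and 4 UMIs of the macrophage gate genes. Mmp12, a macrophage elastase, was at 1985 CPM (1411 to 2713) against 161 (91.9 to 261) in low barcodes, with 0, 0, 3, 0, 24 and 12 UMIs per positive barcode. Lgals3, galectin-3, had 0, 0, 2, 0, 20 and 10 UMIs, and the platelet chemokine Ppbp 0, 0, 0, 1, 9 and 6. The fifth and sixth barcodes, nearest to the macrophage gate with 3 and 4 UMIs, thus carried most UMIs of all these genes. With at least 5 macrophage-gate UMIs required, Mmp12 stood at 0.32 and Lgals3 at −1.12 against log2 ratios of 3.63 (2.75 to 4.56) and 2.48 (1.71 to 3.26). Without barcodes ending in N, Lgals3 stood at 0.84. Apoe had 91, 23, 0, 72, 30 and 6 UMIs and Mrc1 10, 8, 0, 13, 1 and 1, highest in the first and the fourth barcodes, where the macrophage genes were also highest.

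**Figure D4:**
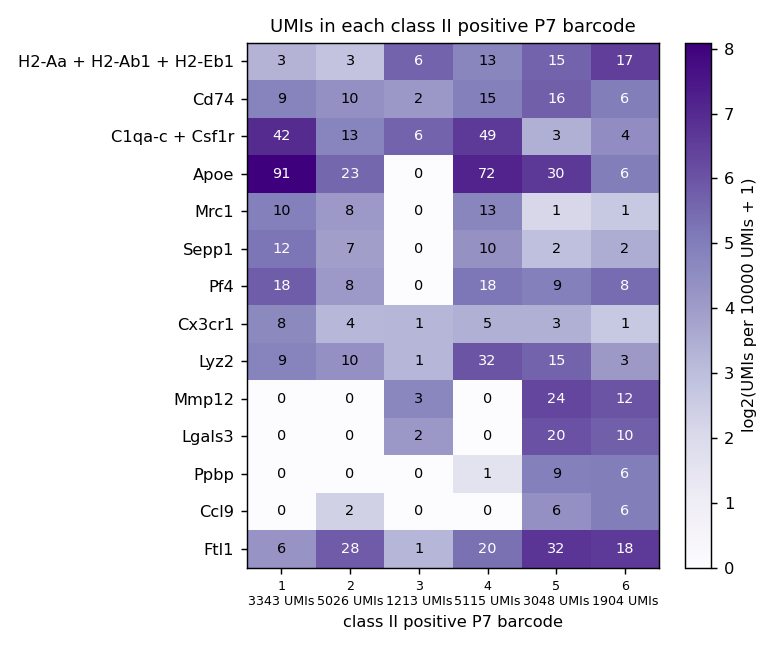
UMIs of selected genes in each of the 6 class II positive P7 barcodes, ordered along the x axis by class II UMIs, with the total UMIs of each barcode below its number. Shading gives log2 of UMIs per 10000 UMIs of the barcode plus 1, and Mmp12, Lgals3 and Ppbp are darkest in the fifth and sixth barcodes, which hold 3 and 4 macrophage-gate UMIs.

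Other genes called higher at P7 were the chemokine Ccl9 at 3.15 (1.79 to 4.61) and the pentose phosphate enzyme Taldo1 at 1.97 (0.96 to 2.95), and both shifted under the stricter macrophage gate, to 0.73 and 0.86. Ccl7 and Ccl12, ligands of monocyte chemokine receptors, had 0 UMIs in positive barcodes and 65 and 54 in low barcodes, at least 2.10 and 1.83 lower. Without barcodes of 3 or more cell cycle UMIs the Ccl12 bound lay under 2-fold, at −0.55. Ccl2 stood at 407 CPM (176 to 802) against 1508 (1276 to 1769), at −1.89 (−3.13 to −0.87), with its 8 positive UMIs in 2 barcodes. F13a1 and the adhesion adaptor Apbb1ip were at 0 in positive barcodes with 32 and 36 UMIs in low barcodes, at least 1.08 and 1.24 lower. Both bounds lay under 2-fold in each of 6 alternatives that kept fewer barcodes (from −0.012 to −0.94 and from −0.12 to −0.94), F13a1 also did without its highest low barcode or any 1 positive barcode, and Apbb1ip did without any 1 of 3 positive barcodes. Sltm had 1 and 46 UMIs, at −3.18 (−8.52 to −0.63). Of the resident list, 1 of 11 measured members was lower, against 1.75% of all measured genes (list median −0.58 against −0.40 for all genes). Mrc1 stood at 1679 CPM (1156 to 2359) against 1970.2 (1704 to 2266) and Pf4 at 3104 CPM (2375 to 3988) against 3649 (3283 to 4044). Ccr2 had 7 UMIs, all in 1 positive barcode, and 0 in the 41 low barcodes.

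Of 1345 genes measured in both libraries, Cd74 was higher in positive barcodes in each. The genes lower in each were Ccl7, F13a1 and 4 haemoglobin genes, 6 of the 52 called lower at P30 and of the 24 called lower at P7. Most of these rest on single barcodes. Of the 1365 haemoglobin UMIs of the low group at P7, 992 were in 1 barcode and Hba-a2 alone kept its call without the highest barcode, at P30 no haemoglobin gene did, and F13a1 did not at P7. Il1b stood at 0.49 (−0.44 to 1.34) at P7 and 2.03 (1.76 to 2.30) at P30, and whether the libraries differed was not tested.

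In class II positive macrophages Cd74, 4 of 26 measured interferon response genes and 5 of 16 measured chemokines were higher in the P30 than in the P7 library, and Ppbp, Mmp12, Lgals3 and Ftl1 were lower. Ppbp, Mmp12 and Lgals3 came mostly from the fifth and sixth P7 barcodes. With at least 5 macrophage-gate UMIs required, Mmp12 and Lgals3 were on the other side. Of 2570 measured genes 70 (2.72%) were called higher and 75 (2.92%) lower, and the log2 ratios had a median of 0.38. Age and run cannot be told apart, and mt-Rnr2, a mitochondrial ribosomal RNA, took 3.87% of UMIs in P30 and 0.270% in P7 positive barcodes. Leaving out the second P7 barcode reduced the lower calls to 46.

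Cd74 stood at 7982 CPM (7670.4 to 8303) at P30 and 2952 (2241 to 3816) at P7, 1.44 (1.06 to 1.84) on the log2 scale. In class II low macrophages it stood at 302 and 90.5 CPM. MHC class I presentation genes had 3 of 15 measured members higher and none lower (list median 0.70 against 0.38 for all genes), B2m at 1.03 (0.72 to 1.36), H2-K1 at 1.28 and the immunoproteasome subunit Psmb8 at 2.30 (0.42 to 5.36). Interferon response genes had 4 of 26 higher and none lower (list median 1.53). Beside these 2 lists, 2.72% of all measured genes were higher. Ifi27l2a stood at 1639 CPM (1499.5 to 1788) against 204 (55.5 to 521), Mndal at 2.40 (1.03 to 4.29) and Ifi203 at 2.75 (0.88 to 5.80), and Ifitm3 had 137 and 0 UMIs. Levels outside the group also differed between the libraries. In class II low macrophages B2m stood at 4815 CPM (4393 to 5266) at P7, also under its P30 level given earlier. Over all barcodes Ifi27l2a stood at 770 CPM at P30 and 18.3 at P7 and Ifitm3 at 1079 and 337, and in class II low macrophages Ifi27l2a stood at 2284 and 191 CPM, Mndal at 926 and 302 and Ifi203 at 587 and 211. Ly6e, an interferon-inducible surface protein, stood at 3.05 (1.18 to 6.10) with 2 P7 UMIs, and the receptor Cd72 had 113 and 0 UMIs, at least 1.26 higher. That bound rests on how many P7 UMIs were summed, and it lay under 2-fold, from 0.028 to 0.84, under 5 of the alternatives that kept fewer barcodes and from 0.82 to 0.99 without any 1 of 3 P7 barcodes.

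Chemokines had 5 of 16 measured members higher and 1 lower (list median 0.39), against 2.72% and 2.92% of all measured genes. Ccl12 had 490 UMIs in 65 of 122 P30 barcodes and 0 in the 6 P7 barcodes, at least 3.37 higher, and Ccl7 had 211 and 0, at least 2.16 higher. Ccl2 stood at 1765 CPM (1619.96 to 1919) against 407 (176 to 802). In class II low macrophages Ccl12 stood at 991 CPM at P30 and 543 at P7, and Ccl7 at 1533 and 653, and whether these differences between ages depended on class II was not tested. Il1b stood at 2310.01 CPM (2144 to 2486) against 763 (427 to 1259), at 1.60 (0.87 to 2.44), and at 3.68 with at least 5 class II UMIs required, which left 2 Il1b UMIs at P7. Top2a at 3.55 (1.06 to 8.86) had 1 P7 UMI, and without barcodes that held 3 or more cell cycle UMIs it had 0 UMIs at P30 and 1 at P7. The histone gene H3f3b stood at 1.98 (1.33 to 2.72).

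Genes lower at P30 were led by those carried by the fifth and sixth P7 barcodes. Ppbp stood at 16.1 CPM (5.24 to 37.6) against 814 (465 to 1322), Mmp12 at 229 CPM (179 to 289) against 1985 (1411 to 2713) and Lgals3 at 209.7 CPM (162 to 267) against 1629 (1114 to 2299). With at least 5 macrophage-gate UMIs required, Ppbp was at −2.06, and Mmp12 at 0.16 and Lgals3 at 0.64 were on the other side. Ftl1, ferritin light chain, stood at 1523 CPM (1388 to 1667) against 5344 (4371 to 6469), at −1.81 (−2.12 to −1.49), with a UMI in all 6 P7 barcodes. Actin gamma (Actg1) stood at −1.33 (−1.72 to −0.92), the glutathione synthesis gene Gclm at −2.39 (−3.24 to −1.48) and the lysosomal glycoprotein gene Creg1 at −2.43 (−3.30 to −1.48). Ftl1 and Actg1 have processed copies, so which locus was read is uncertain. Mir692-2a at −2.48, Taldo1 at −1.88, Ccl9 at −1.90, Serpinb6a at −2.39 and Lrrc58 at −1.21 were also lower. The Serpinb6a and Lrrc58 calls were lost without the highest P7 barcode. With at least 5 macrophage-gate UMIs, Ftl1 stood at −1.285 and Creg1 at −1.249, closer to equal levels. Under that gate Taldo1 stood at −0.78 and Ccl9, on the other side, at 0.50. Of the resident list, Mrc1 at −1.31 (−1.84 to −0.73) and Pf4 at −1.28 (−1.67 to −0.87) were lower, 2 of 7 measured (list median −0.55). Of all measured genes 2.92% were lower.

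**Figure D5:**
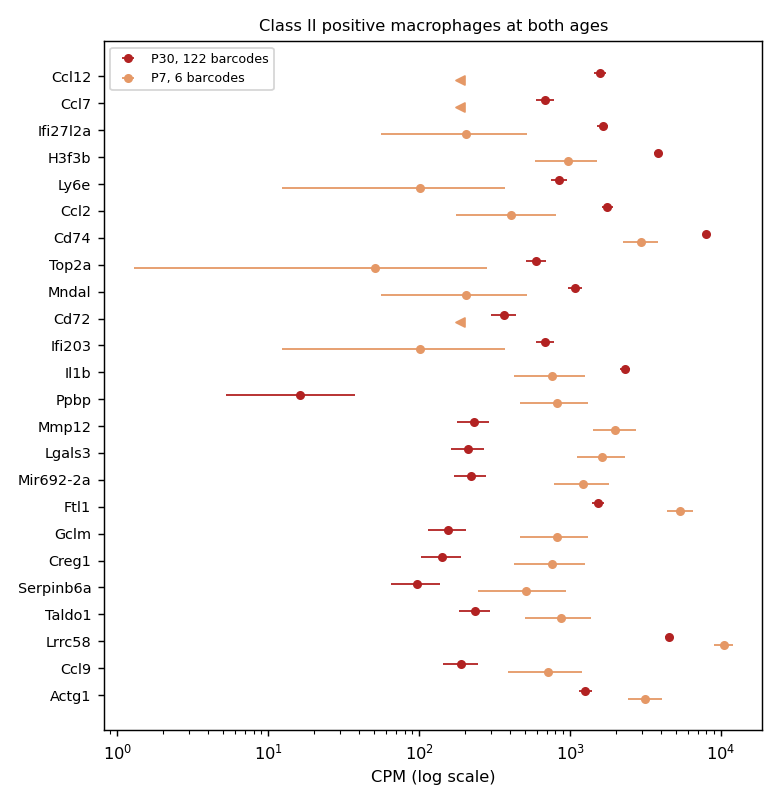
Levels in CPM (log scale) of the genes named singly in class II positive macrophages of the P30 library (red, 122 barcodes) and the P7 library (orange, 6 barcodes), with exact Poisson intervals at 95% and triangles at the upper limit of a group with 0 UMIs. P7 intervals are wide, as for Top2a with 1 UMI, and Ppbp, Mmp12 and Lgals3 lie to the right in the P7 library.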

How the data were processed

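Valve cells from 1 P7 and 1 P30 Drop-seq library were analysed from the deposited tables of UMI counts per gene and barcode, whole numbers with no normalization; normalized tables deposited beside them were not used. Build mm10 and Bowtie2 2.2.7 are named, without a role, per the submitters' processing notes. Which counting program and annotation were used is not given in the sources used here. Each library has at least 500 detected genes in every barcode.

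Barcodes were gated as the report describes, UMIs were summed per group and given per 1000000 UMIs of the group (CPM). Levels have exact Poisson, ratios exact binomial and shares Clopper-Pearson intervals at 95%. A group without a UMI was set at a floor of 3 UMIs and its ratio is a bound. Shares of barcodes with a UMI are also given for barcodes thinned to 600 UMIs. Genes of the 29 lists may be named as list members. Named singly were the 12 genes per direction (6 at P7) at least 2-fold apart whose nearest interval bound lay farthest from equal levels, without rule, mitochondrial, ribosomal protein, haemoglobin and unnamed genes and those under the library-wide level. Genes of the rule, barcode-level values and Ciita, H2-DMb2 and mt-Rnr2 are extra description. The members and lists were chosen with earlier results of these data known. The calling was tested on simulated Poisson counts of summed groups. These had no variation between barcodes, so the simulation does not cover calls that rest on single barcodes. Python 3.11.15, numpy 2.4.6, scipy 1.17.1, pandas 2.3.3 and matplotlib 3.10.9 were used.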

Additional observations from a re-analysis of the deposited data

Results flagged for a closer look

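Serpinb6a, a serine protease inhibitor gene, lay on opposite sides in the libraries. Its log2 ratio of class II positive over class II low barcodes was −1.66 (−2.32 to −1.03) at P30, with 30 and 75 UMIs, and 1.57 (0.29 to 2.78) at P7, with 10 and 17 UMIs. The P7 UMIs were 5, 0, 2, 0, 2 and 1 in the 6 positive barcodes. The difference between the libraries was not tested.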

How the results depend on the processing

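No paired analysis was possible because each age has 1 library. The share of class II positive macrophages stayed between 8.51% and 14.7% at P7 and between 50.9% and 55.5% at P30 under every alternative run. Counts are given as higher then lower. With 50 CPM and 20 UMIs required, calls were 72 and 109 at P30, 8 higher at P7, and 26 lower for P30 over P7. With no filter on level, 95 were higher at P7 and 335 lower between ages. With wider intervals (an error of 0.01% in place of 5%), an alternative chosen after seeing the data, they were 15 and 40 at P30, 6 and 6 at P7, and 15 and 29 between ages. Without the highest barcode of a gene, also chosen after seeing the data, they were 64 and 116 at P30, 7 higher at P7 and 30 lower between ages. Leaving out barcodes ending in N gave 15 higher at P7. At least 5 macrophage-gate UMIs gave 13 higher at P7, and Lgals3 turned to −1.12 there, while Mmp12 turned to 0.16, Lgals3 to 0.64 and Ccl9 to 0.50 between ages. Between ages, calls were 42 and 40 with at least 5 class II UMIs, 43 and 39 with class II at 0.1% of UMIs or more, 36 and 35 in barcodes of 1000 to 5000 UMIs, and 37 and 35 without barcodes of 3 or more cell cycle UMIs. Leaving out each P7 positive barcode in turn gave 16 to 29 higher and 23 to 27 lower at P7, and 50 to 66 higher and 46 to 72 lower between ages. The causes were not tested beyond the smaller number of barcodes or genes. Leaving out barcodes rich in haemoglobin transcripts, also chosen after seeing the data, changed no count by over 1.5 times. Low depth limits P7 most, where 10 UMIs are 509 CPM in positive barcodes.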
